A study of Mus musculus with 11 samples.

Results

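The assembly factors of pre-ribosomes described here are 57 genes given as a list by symbol, 34 that act on the small ribosomal subunit and 23 that act on the large subunit or more generally in the nucleolus. All 57 symbols matched 1 gene identifier each among the 55416 in the deposited table, and all 57 were among the 12909 genes tested, those whose normalized count averaged 10 or more over the libraries. Polyadenylated RNA came from EC4, a mouse liver cancer line, so every library is of a single line. Cells labelled MYC high (genotype MYC on) or MYC low (genotype MYC off) were kept for 24 h in DMEM with 10 µM or with 200 µM methionine. The groups were MYC high at 10 µM (3 libraries), MYC high at 200 µM (2 libraries, numbered 2 and 3), MYC low at 10 µM (3 libraries) and MYC low at 200 µM (3 libraries). All cells had been grown in DMEM with 200 µM methionine before the treatment, and the labels do not say how MYC is switched. Cells at 10 µM are called starved and cells at 200 µM fed below.

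Ribosomes are assembled in the nucleolus, where RNA polymerase I makes a long precursor of ribosomal RNA that is folded, modified and cut while ribosomal proteins join it. The small-subunit processome is the large particle that forms on the nascent precursor around the U3 small nucleolar RNA, and it is built from modules that bind in order, the UTP-A, UTP-B and MPP10 complexes and further factors. Large-subunit precursors carry their own set, among them the PeBoW complex of Pes1, Bop1 and Wdr12, which is needed to remove a spacer within the precursor. MYC is known to raise transcription of many of these genes, and it binds DNA with its partner MAX at the E-box sequence.

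Libraries held 10858936 to 13085689 reads on genes, and replicates of a group correlated at 0.993 or more (Pearson r across tested genes, 10 pairs). The mouse Myc transcript separated the MYC labels at 200 µM, with MYC high libraries at 2014 and 2164 normalized counts and MYC low libraries at 1106 to 1168. At 10 µM it did not, with 291 to 366 in MYC high and 320 to 344 in MYC low libraries (log2 difference −0.0050, SE 0.063, adjusted p = 0.949), so every direction between MYC states at 10 µM rests on the labels. Of 14 hepatocyte markers 1, Ass1, passed the filter, and 7, Alb among them, had 0 reads in all libraries. Their summed level was 386 to 396 and 150 to 153 normalized counts in MYC high libraries at 10 and 200 µM, against 549 to 582 and 405 to 485 in MYC low libraries. Of 5 fetal liver markers Afp alone passed, and the summed level ran the other way, at 337 to 366 and 150 to 162 in MYC high libraries at 10 and 200 µM, against 118 to 146 and 78.0 to 106 in MYC low libraries. Of 5 epithelial markers Krt8, Krt18 and Krt19 did while Epcam had no read. No fibroblast or endothelial marker passed. Of 8 macrophage markers Cd68, Csf1r and Cd14 passed while Ptprc, C1qa and C1qb had no read. The summed macrophage level was 1061 to 1133 and 644 to 674 normalized counts in MYC high libraries at 10 and 200 µM, against 1302 to 1413 and 919 to 963 in MYC low libraries. Its members differed in direction, since Cd68 averaged 454 and 28.2 in MYC high cells at 10 and 200 µM, against 204 and 88.9 in MYC low cells, while Cd14 averaged 205 and 385, against 392 and 430. The summed epithelial level was 23450 to 25125 and 9899 to 10309 in MYC high libraries at 10 and 200 µM, against 31678 to 32473 and 13632 to 14153 in MYC low libraries. These members differed in direction too. Krt8 averaged 7988 and 3446 in MYC high cells at 10 and 200 µM, against 14116 and 5488 in MYC low cells. Krt18 averaged 4140 and 5181, against 6957 and 5183, and Krt19 averaged 12021 and 1477, against 11026 and 3251. The part of these lists in the results was not tested. In GENCODE M21, 25 of the 57 genes share exonic bases with a gene on the opposite strand, and 9 share over 10% of their exonic length. Those 9 are Tbl3, Tsr1, Tsr2, Nop9, Noc2l, Wdr3, Rrp7a, Utp23 and Utp14a, and since the strand setting is not known, their values are uncertain to that extent.

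The 57 genes together took the largest share of reads in MYC high cells fed 200 µM methionine. Starved and fed MYC high libraries gave them 0.485% ± 0.00099 (SD, n = 3) and 0.729% ± 0.015 (SD, n = 2) of all reads, against 0.354% ± 0.0019 and 0.400% ± 0.0032 in starved and fed MYC low libraries (SD, n = 3 each). No library of a group reached the range of another group. In 47 of the 57 genes the highest group mean was that of MYC high cells at 200 µM, against 33.9% of all genes tested. In 39 the lowest was that of MYC low cells at 10 µM, against 25.2%. For 46 of them both MYC high libraries at 200 µM stood above all 9 other libraries, a pattern that 26.2% of all genes tested showed. The commonest order, in 28 genes, was MYC high at 200 µM, MYC high at 10 µM, MYC low at 200 µM and MYC low at 10 µM from high to low, which 10.3% of all genes tested had. In 26 of the 57 genes each group was clear of its neighbour in that gene's own order, against 30.3% of all genes tested, and in the others at least 1 pair of neighbouring groups overlapped. Values are relative to the RNA of a library, so a change in total RNA per cell is not measured. Each library is of pooled cells, so fewer cells with a transcript and less of it per cell cannot be told apart.

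**Figure D1:**
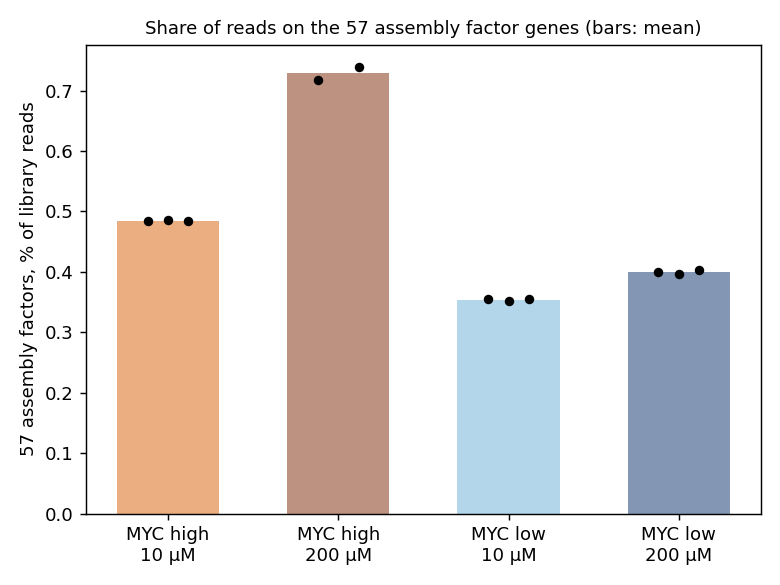
Percent of each library's reads that fell on the 57 assembly factor genes, by group. Bars are group means and points are libraries (3, 2, 3 and 3), and the MYC high libraries at 200 µM stand above all others.

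**Figure D2:**
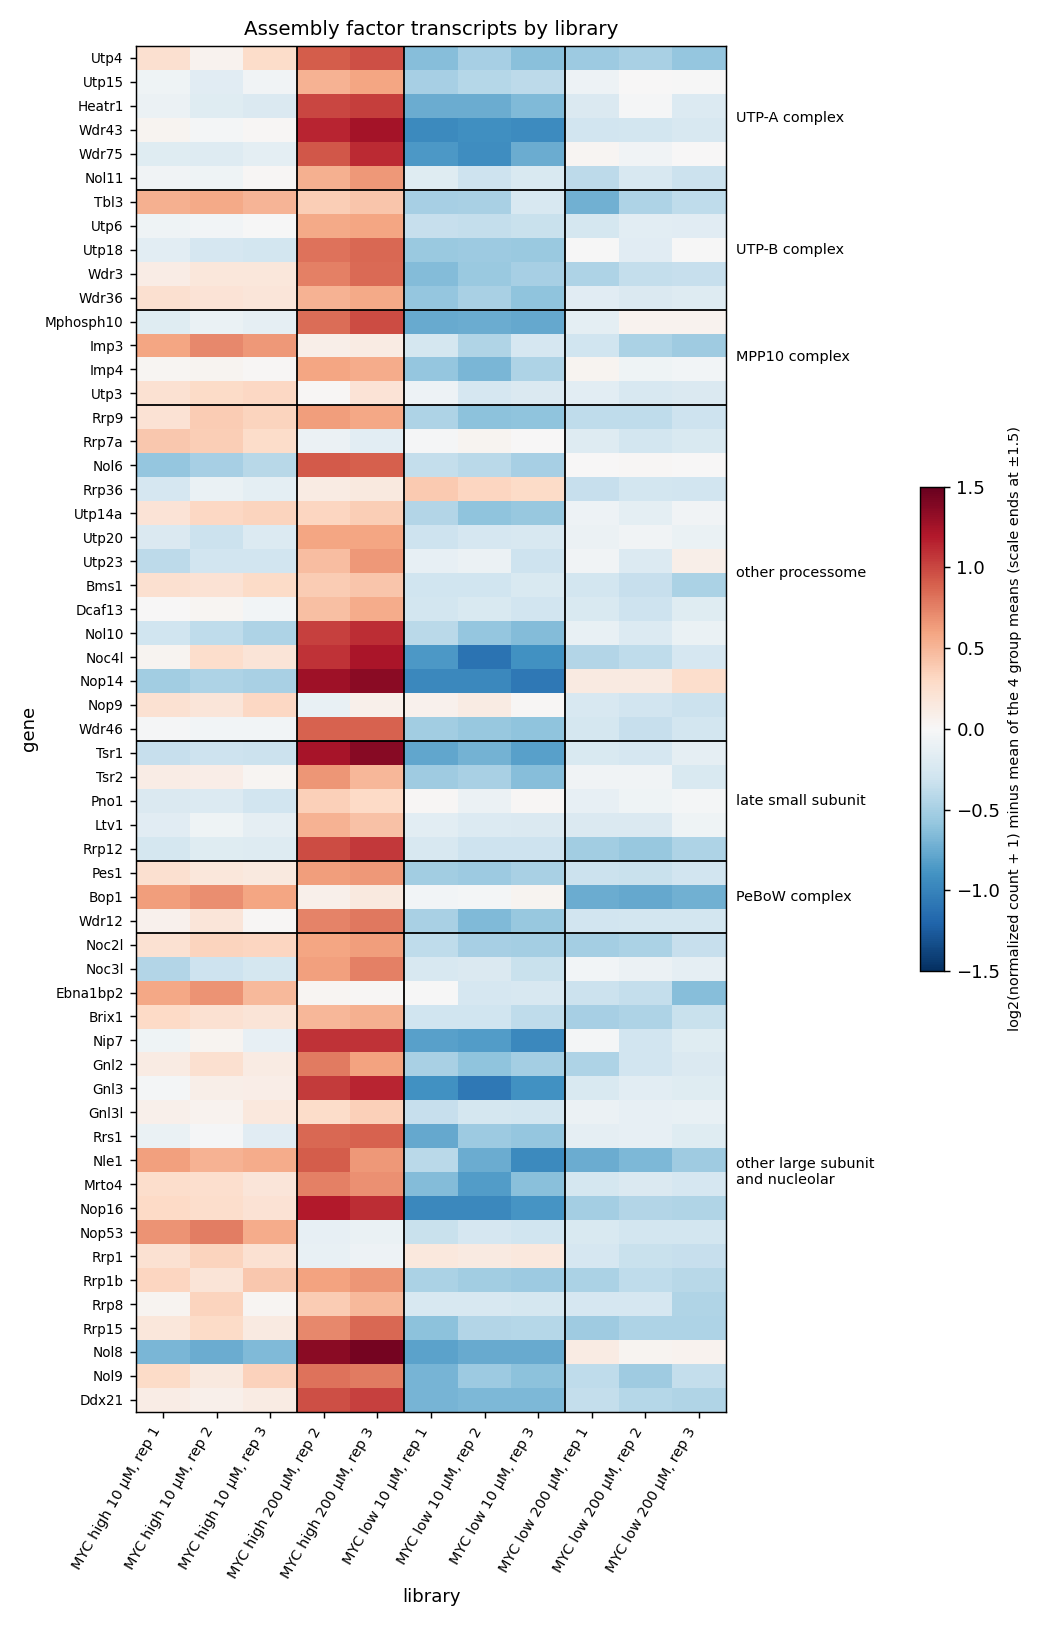
Level of each of the 57 genes (rows, grouped by complex) in each of the 11 libraries (columns), as log2(normalized count + 1) minus the mean of the gene's 4 group means. Red is above and blue below that mean, and the MYC high columns at 200 µM are red in most rows.

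Measured per kilobase of exonic length (GENCODE M21), the scale used here to compare genes, Rrp1, Pes1 and Pno1 had the highest mean level over the groups. That length joins all exons of a gene and can far exceed its longest coding transcript, as for Dcaf13 (10825 against 1551 bases). Another length could therefore change the order. Rrp1, a nucleolar factor of large-subunit maturation, stood at 1088 and 846 normalized counts per kilobase in MYC high cells at 10 and 200 µM, against 1004 and 731 in MYC low cells. Utp23, whose yeast homologue acts in early small-subunit assembly, and Nle1, a substrate of the remodelling ATPase midasin, had the lowest. Utp23 stood at 41.7 and 77.2 per kilobase in MYC high cells at 10 and 200 µM, against 46.4 and 50.4 in MYC low cells. The lowest read count of any of the 57 genes in a library was 102, of Nle1. The median coefficient of variation within a group was 3.69% and the highest 19.6%.

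At 200 µM methionine all 57 assembly factors had more transcript in cells with MYC high than with MYC low. By the same test 36.8% of all genes tested were higher and 37.6% lower. The median log2 difference of the 57 was 0.93, against −0.0031 over all genes tested, and single genes ranged from 0.11 to 1.62. None was lower with limma, none had a negative difference at an unadjusted p under 0.05, and edgeR and DESeq2 on whole reads also gave 0. Rrp7a did not pass as higher with edgeR (adjusted p = 0.0805) or DESeq2 (adjusted p = 0.0693). Nop53 and Rrp7a did not pass with scaling to equal library totals or equal upper quartiles. At least 2-fold differences were seen in 24 genes, against 6.79% of all genes tested for the same rule. The MYC high and MYC low libraries at 200 µM did not overlap for any of the 57 genes. Among all genes tested MYC high libraries stood clear above in 40.7%, and the states did not overlap in either direction in 81.4%.

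Among the factors that bind the nascent precursor first, all 6 genes of the UTP-A complex were higher (median 1.10). Wdr43 (ENSMUSG00000041057), a WD-repeat subunit, had 1796, 1710.4 and 1759 normalized counts in MYC high cells at 10 µM and 3864 and 4147 at 200 µM, against 896, 923 and 907 in MYC low cells at 10 µM and 1430.3, 1438 and 1478 at 200 µM. Its fed MYC high libraries held the highest values and the starved MYC low libraries the lowest, with no overlap between groups. The difference at 200 µM was 2.76-fold (log2 1.47, SE 0.043, adjusted p = 7.80e-27). Heatr1 (ENSMUSG00000050244), a long HEAT-repeat subunit, had 1027, 961 and 939.6 normalized counts in MYC high cells at 10 µM and 2187 and 2239.5 at 200 µM, against 647, 651 and 689.6 in MYC low cells at 10 µM and 933, 1072 and 947 at 200 µM. At 200 µM it differed 2.25-fold (log2 1.17, SE 0.056, adjusted p = 1.76e-20), while its MYC high libraries at 10 µM overlapped MYC low libraries at 200 µM. Utp4 (1.47), Wdr75 (1.03), Nol11 (0.91) and Utp15 (0.58) completed the complex on the log2 scale.

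The 5 listed UTP-B subunits were higher by a median of 0.90, led by Wdr3 (1.19), a WD-repeat protein. Wdr3 had 950.5, 992 and 993 normalized counts in MYC high cells at 10 µM and 1491 and 1593 at 200 µM, against 561, 599 and 624 in MYC low cells at 10 µM and 642, 691 and 691 at 200 µM. The groups lay apart in all 4 positions, and the starved MYC high libraries were between both groups at 200 µM. The MPP10 complex, which joins after these modules, had the smallest median of the small-subunit modules at 0.57, with Mphosph10 (0.93), Imp4 (0.59), Imp3 (0.54) and Utp3 (0.31). Mphosph10, the scaffold of that complex, had 507, 536 and 525 normalized counts in MYC high cells at 10 µM and 1029 and 1136 at 200 µM, against 341, 342 and 337 in MYC low cells at 10 µM and 518, 598 and 594 at 200 µM. It was 1.90-fold higher in MYC high cells at 200 µM (SE of the log2 difference 0.068, adjusted p = 5.94e-15).

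The 14 other processome genes ranged from Noc4l at 1.51 to Rrp7a at 0.11, with a median of 0.75. Noc4l, which acts as a pair with Nop14, had 545, 638 and 608 normalized counts in MYC high cells at 10 µM and 1125 and 1248 at 200 µM, against 292, 246 and 282 in MYC low cells at 10 µM and 392, 409 and 447 at 200 µM. It was 2.85-fold higher at 200 µM (log2 1.51, SE 0.078, adjusted p = 1.95e-19). Rrp7a, a subunit of the UTP-C complex in yeast, had 1774, 1723 and 1618 normalized counts in MYC high cells at 10 µM and 1254 and 1199 at 200 µM, against 1325, 1374 and 1338 in MYC low cells at 10 µM and 1168, 1106 and 1143 at 200 µM. Its starved libraries were above its fed libraries in both states, and the MYC difference at 200 µM was small (log2 0.11, SE 0.047, adjusted p = 0.0403). With scaling to equal library totals the difference was 0.021 with an adjusted p of 0.700, and with equal upper quartiles 0.063 with an adjusted p of 0.229. With no filter on low values the difference did not pass either (adjusted p = 0.0757). It also did not pass without replicate 2 of MYC high cells at 200 µM (0.074, adjusted p = 0.268), nor without replicate 2 (0.086, adjusted p = 0.137) or replicate 3 (0.11, adjusted p = 0.0605) of MYC low cells at 200 µM, nor with edgeR (adjusted p = 0.0805) or DESeq2 (adjusted p = 0.0693). Utp20, a very long HEAT-repeat protein of the processome, had 1693, 1573 and 1707 normalized counts in MYC high cells at 10 µM and 2967 and 2958 at 200 µM, against 1589, 1645 and 1667 in MYC low cells at 10 µM and 1855, 1895 and 1830.1 at 200 µM. The fed MYC high libraries stood above the other 3 groups, and the starved MYC high and MYC low libraries overlapped. Bms1, a GTPase of the processome, had 1432, 1412 and 1479 normalized counts in MYC high cells at 10 µM and 1577 and 1613 at 200 µM, against 985, 983 and 1039 in MYC low cells at 10 µM and 1000.4, 951 and 871 at 200 µM. Its difference at 200 µM was 0.76 (SE 0.051), and both MYC high groups stood above both MYC low groups.

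Of the 5 factors of late small-subunit maturation, Rrp12 and Tsr1 were among the most different genes of the whole set. Rrp12 (ENSMUSG00000035049), a HEAT-repeat protein involved in export of pre-ribosomes, had 1035, 1104 and 1087 normalized counts in MYC high cells at 10 µM and 2464 and 2593 at 200 µM, against 1052, 1009 and 1004 in MYC low cells at 10 µM and 867, 844 and 906 at 200 µM. The fed MYC high libraries were 2.90-fold above fed MYC low libraries (log2 1.53, SE 0.049, adjusted p = 7.12e-26) and the 9 libraries of the other groups lay between 844 and 1104. Tsr1, a GTPase-like protein of cytoplasmic precursors, had 1315, 1346 and 1341 normalized counts in MYC high cells at 10 µM and 3953 and 4314 at 200 µM, against 975, 1019.9 and 952 in MYC low cells at 10 µM and 1428, 1410.1 and 1520.4 at 200 µM. Fed MYC high libraries were far above the rest, with a difference of 1.51 (SE 0.047) at 200 µM. Tsr1 shares 32.3% of its exonic length with Srr on the opposite strand, which was higher by 1.18 (SE 0.061), and with no strand setting known their reads cannot be told apart. Ltv1 (0.65), Tsr2 (0.69) and Pno1 (0.40) were less different, and Tsr2 shares 30.2% of its exonic length with Fgd1.

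The PeBoW complex was higher as a unit at 200 µM, by 1.05 for Wdr12, 0.95 for Pes1 and 0.85 for Bop1. Pes1 (ENSMUSG00000020430) had 2529, 2416 and 2367 normalized counts in MYC high cells at 10 µM and 3322 and 3372 at 200 µM, against 1491, 1472 and 1534 in MYC low cells at 10 µM and 1722, 1707 and 1762 at 200 µM. Wdr12 had 881, 949.9 and 846 normalized counts in MYC high cells at 10 µM and 1404 and 1453 at 200 µM, against 597, 530.4 and 567 in MYC low cells at 10 µM and 686, 694 and 692 at 200 µM. Both were highest in fed MYC high and lowest in starved MYC low libraries, with every group apart from its neighbour.

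The 20 other large-subunit and nucleolar genes were higher by a median of 1.04, and 12 of them were at least 2-fold higher. Nop16 (ENSMUSG00000025869), a nucleolar factor of the large subunit, had the largest difference of all 57 genes. It had 788, 767 and 743 normalized counts in MYC high cells at 10 µM and 1457 and 1387 at 200 µM, against 328, 328 and 346 in MYC low cells at 10 µM and 449, 473 and 468 at 200 µM. The gene was 3.06-fold higher at 200 µM (log2 1.62, SE 0.061, adjusted p = 1.19e-23). Ddx21 (ENSMUSG00000020075), a DEAD-box helicase that links ribosomal gene transcription to processing, had 3386, 3294 and 3417 normalized counts in MYC high cells at 10 µM and 6109 and 6372 at 200 µM, against 1942, 1958 and 1968 in MYC low cells at 10 µM and 2450.2, 2326 and 2300.4 at 200 µM. The difference at 200 µM was 2.65-fold (log2 1.40, SE 0.038, adjusted p = 3.49e-28), and all 4 groups lay apart. Rrs1, a large-subunit assembly factor conserved from yeast, had 887, 942 and 848 normalized counts in MYC high cells at 10 µM and 1736 and 1760.0 at 200 µM, against 561, 654 and 640.2 in MYC low cells at 10 µM and 867, 877 and 839 at 200 µM. The difference at 200 µM was 2.03-fold (log2 1.02, SE 0.058, adjusted p = 4.09e-18). Rrp8, a methyltransferase of large-subunit RNA, had 437, 537 and 436 normalized counts in MYC high cells at 10 µM and 554 and 597 at 200 µM, against 361, 361 and 356 in MYC low cells at 10 µM and 359, 357 and 311 at 200 µM. Its difference was 0.75 at 200 µM (SE 0.083), and its MYC low groups overlapped.

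The smallest large-subunit differences belonged to Nop53 and Rrp1. Nop53, which in yeast brings the exosome to large-subunit precursors, had 1341 and 1367 normalized counts in MYC high cells against 1252, 1212 and 1204 in MYC low cells (log2 0.15, SE 0.048, adjusted p = 0.00651). That call did not pass without replicate 3 of MYC high cells at 200 µM (0.13, adjusted p = 0.0516), or with scaling to equal totals (0.062, adjusted p = 0.241) or equal upper quartiles (0.10, adjusted p = 0.0502). Rrp1 had 2790.1 and 2857 normalized counts in MYC high cells against 2545, 2394 and 2376 in MYC low cells, a difference of 0.21 (SE 0.040). Nop9, a processome factor at 0.27 (SE 0.076), shares 29.9% of its exonic length with Cideb and did not pass without replicate 3 of MYC high cells at 200 µM (0.17, adjusted p = 0.101).

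At 10 µM methionine 48 of the 57 genes were higher in libraries labelled MYC high, 2 were lower and 7 did not pass, against 35.7% of all genes tested higher and 35.8% lower. The median log2 difference was 0.60, against 0.0015 over all genes tested, with a range from −0.51 to 1.26. At least 2-fold differences were fewer, in 4 genes of the set, against 6.41% of all genes tested. Those 4 were Nle1, Nop16, Noc4l and Gnl3. Nle1 had 269, 251 and 257 normalized counts in MYC high cells at 10 µM and 329 and 275 at 200 µM, against 132, 104 and 89.9 in MYC low cells at 10 µM and 104, 109 and 121 at 200 µM. At 10 µM it was 2.40-fold higher in MYC high libraries (log2 1.26, SE 0.11, adjusted p = 2.47e-12), and the MYC states did not overlap in either medium.

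The UTP-A, UTP-B, MPP10 and PeBoW complexes remained higher at 10 µM in all of their listed genes, 18 in all, with medians of 0.61, 0.72, 0.61 and 0.66. The late small-subunit factors did not move as a unit. Tsr1 (0.44) and Tsr2 (0.63) were higher, Rrp12 (0.073, 95% interval −0.015 to 0.16, adjusted p = 0.132) and Ltv1 (0.073, interval −0.070 to 0.22, adjusted p = 0.361) did not pass, and Pno1 was lower. Pno1 (ENSMUSG00000020116), the RNA-binding partner of the endonuclease Nob1, had 1031, 1042 and 986 normalized counts in MYC high cells at 10 µM and 1532 and 1482 at 200 µM, against 1218, 1125 and 1213 in MYC low cells at 10 µM and 1098, 1150.2 and 1178 at 200 µM. The starved MYC high libraries were the lowest of the 4 groups, 1.16-fold below the starved MYC low libraries (log2 −0.22, SE 0.044, adjusted p = 4.46e-05).

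Rrp36 (ENSMUSG00000023971), a processome factor, was the other gene lower in MYC high libraries at 10 µM. It had 383, 426 and 412 normalized counts in MYC high cells at 10 µM and 497 and 506 at 200 µM, against 603, 574 and 558 in MYC low cells at 10 µM and 361, 379 and 374 at 200 µM. The starved MYC low libraries were the highest group, so that the difference between MYC states was −0.51 (SE 0.062, adjusted p = 3.71e-09) at 10 µM and 0.43 (SE 0.069, adjusted p = 7.60e-07) at 200 µM. The 5 genes besides Rrp12 and Ltv1 that did not pass were Nol6 (−0.076), Utp20 (0.020), Utp23 (−0.15), Noc3l (−0.072) and Nol8 (0.072). Their 95% intervals lay between −0.37 and 0.17. Utp23 had 119, 128 and 128 normalized counts in MYC high cells at 10 µM and 216 and 246 at 200 µM, against 144, 147 and 126 in MYC low cells at 10 µM and 151, 135 and 166 at 200 µM. The fed MYC high libraries stood above the rest and the other groups ran into each other. With scaling to equal library totals Nol6 (−0.13, adjusted p = 0.0156) and Noc3l (−0.13, adjusted p = 0.0434) passed as lower, while Nol10, Nop9 and Rrp1 no longer passed. Nol6 also passed without replicate 3 of MYC high cells at 10 µM (−0.12, adjusted p = 0.0491). Nol10 (0.16) did not pass without MYC high replicate 1 (0.12, adjusted p = 0.109) or without MYC low replicate 2 (0.15, adjusted p = 0.0573) or 3 (0.11, adjusted p = 0.147) at 10 µM. Nop9 (0.17) did not pass without replicate 3 of MYC high (0.14, adjusted p = 0.0986) or of MYC low cells at 10 µM (0.15, adjusted p = 0.0867), nor Rrp1 (0.11) without MYC high replicate 2 (0.076, adjusted p = 0.0517).

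**Figure D3:**
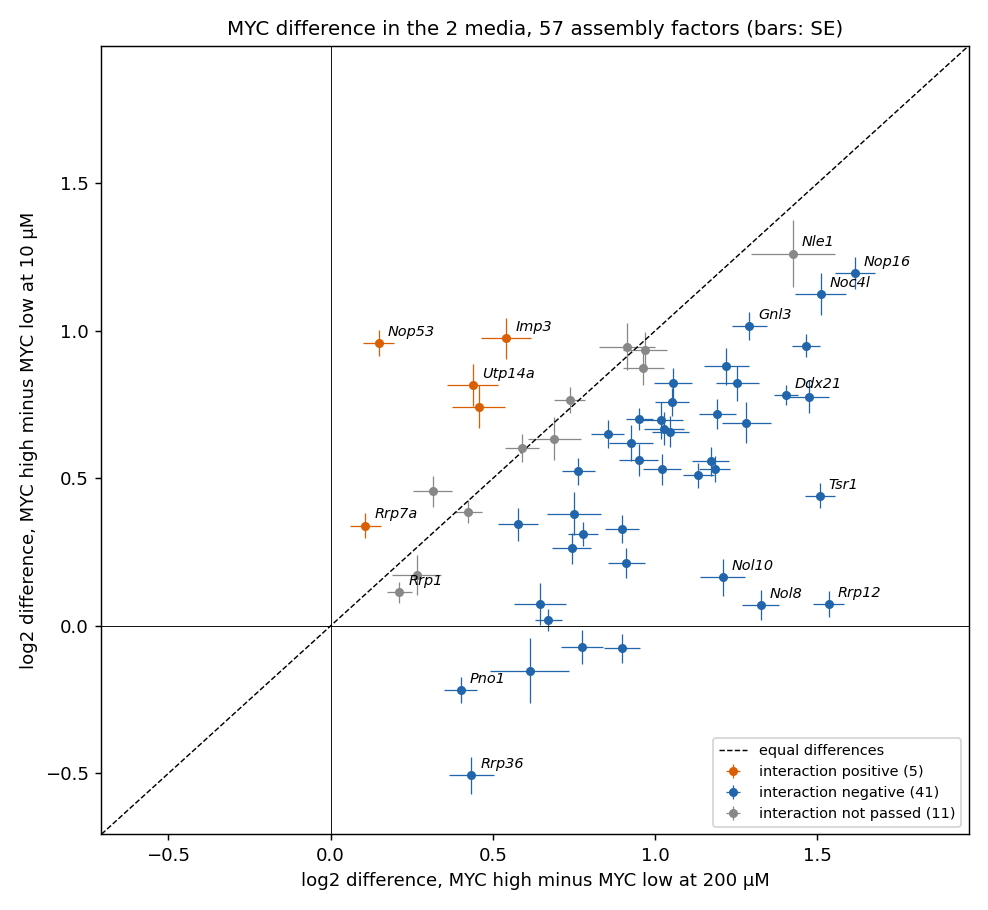
Difference between MYC states (log2, MYC high minus MYC low) at 200 µM on the x axis and at 10 µM on the y axis, 1 point per gene with bars of 1 SE. Points lie right of 0 for all 57 genes, most lie below the dashed line of equal differences, and the 5 genes with a positive interaction, Nop53, Imp3, Utp14a, Ebna1bp2 and Rrp7a, lie above it.

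The MYC difference narrowed in the starved medium for most of the set and widened for a few. For Pno1 and Rrp36 it changed direction, from higher at 200 µM to lower at 10 µM. The interaction, which is the MYC difference at 10 µM minus that at 200 µM and equally the methionine difference in MYC high cells minus the one in MYC low cells, was negative in 41 of the 57 genes, positive in 5 and not passed in 11, against 29.4% of all genes tested negative and 31.0% positive. Its median was −0.38, against 0.010 over all genes tested. A negative interaction of at least 2-fold was seen in 4 genes (4.75% of all genes tested had one), namely Rrp12 (−1.46, SE 0.066), Nol8 (−1.25, SE 0.075), Tsr1 (−1.07, SE 0.063) and Nol10 (−1.04, SE 0.093). The 5 positive genes were Nop53 (0.81, SE 0.065), Imp3 (0.43, SE 0.10), Utp14a (0.38, SE 0.11), Ebna1bp2 (0.29, SE 0.11) and Rrp7a (0.23, SE 0.063). That of Ebna1bp2 did not pass without replicate 2 of either starved group, replicate 3 of starved MYC low, replicate 1 or 2 of fed MYC low or replicate 3 of fed MYC high cells (0.23 to 0.28, adjusted p from 0.0564 to 0.0783), nor with no filter on low values (adjusted p = 0.0812). Utp14a, whose yeast homologue activates a helicase of the processome, had 404, 435 and 441 normalized counts in MYC high cells at 10 µM and 439.9 and 455 at 200 µM, against 259, 231 and 236 in MYC low cells at 10 µM and 334, 318 and 338 at 200 µM. Its ranges overlapped between media in MYC high cells (−0.068, interval −0.23 to 0.093), and it fell in MYC low cells (−0.45, SE 0.071). Across the 57 genes the MYC differences in the media, which share no libraries, correlated with a Pearson r of 0.405, below the 0.616 across all genes tested. In both media 48 of the 57 genes were higher, against 23.2% of all genes tested.

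In MYC high cells 46 of the 57 genes fell at 10 µM relative to 200 µM methionine, 8 rose and 3 did not pass, against 37.9% of all genes tested lower and 37.9% higher. The median log2 difference was −0.60, against −0.0039 over all genes tested. At least 2-fold falls were seen in 14 genes, against 9.18% of all genes tested. Nol8 (ENSMUSG00000021392), a nucleolar protein needed for cell growth, had 495, 477 and 504 normalized counts in MYC high cells at 10 µM and 2052 and 2171 at 200 µM, against 456, 474 and 474 in MYC low cells at 10 µM and 874, 821 and 832 at 200 µM. In MYC high cells the starved libraries held 23.3% of the fed level (log2 −2.10, SE 0.056, adjusted p = 1.88e-28), and they were close to the starved MYC low libraries. Nop14 (ENSMUSG00000036693), the partner of Noc4l, had 1108, 1156 and 1137 normalized counts in MYC high cells at 10 µM and 3842 and 4073 at 200 µM, against 813, 816 and 759 in MYC low cells at 10 µM and 1755, 1748 and 1909 at 200 µM. Its starved level in MYC high cells was 28.7% of the fed level (log2 −1.80, SE 0.048, adjusted p = 1.40e-28), below that of fed MYC low cells. Tsr1 followed at −1.63 (SE 0.047), beside a change of −1.30 (SE 0.061) in the overlapping Srr.

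**Figure D4:**
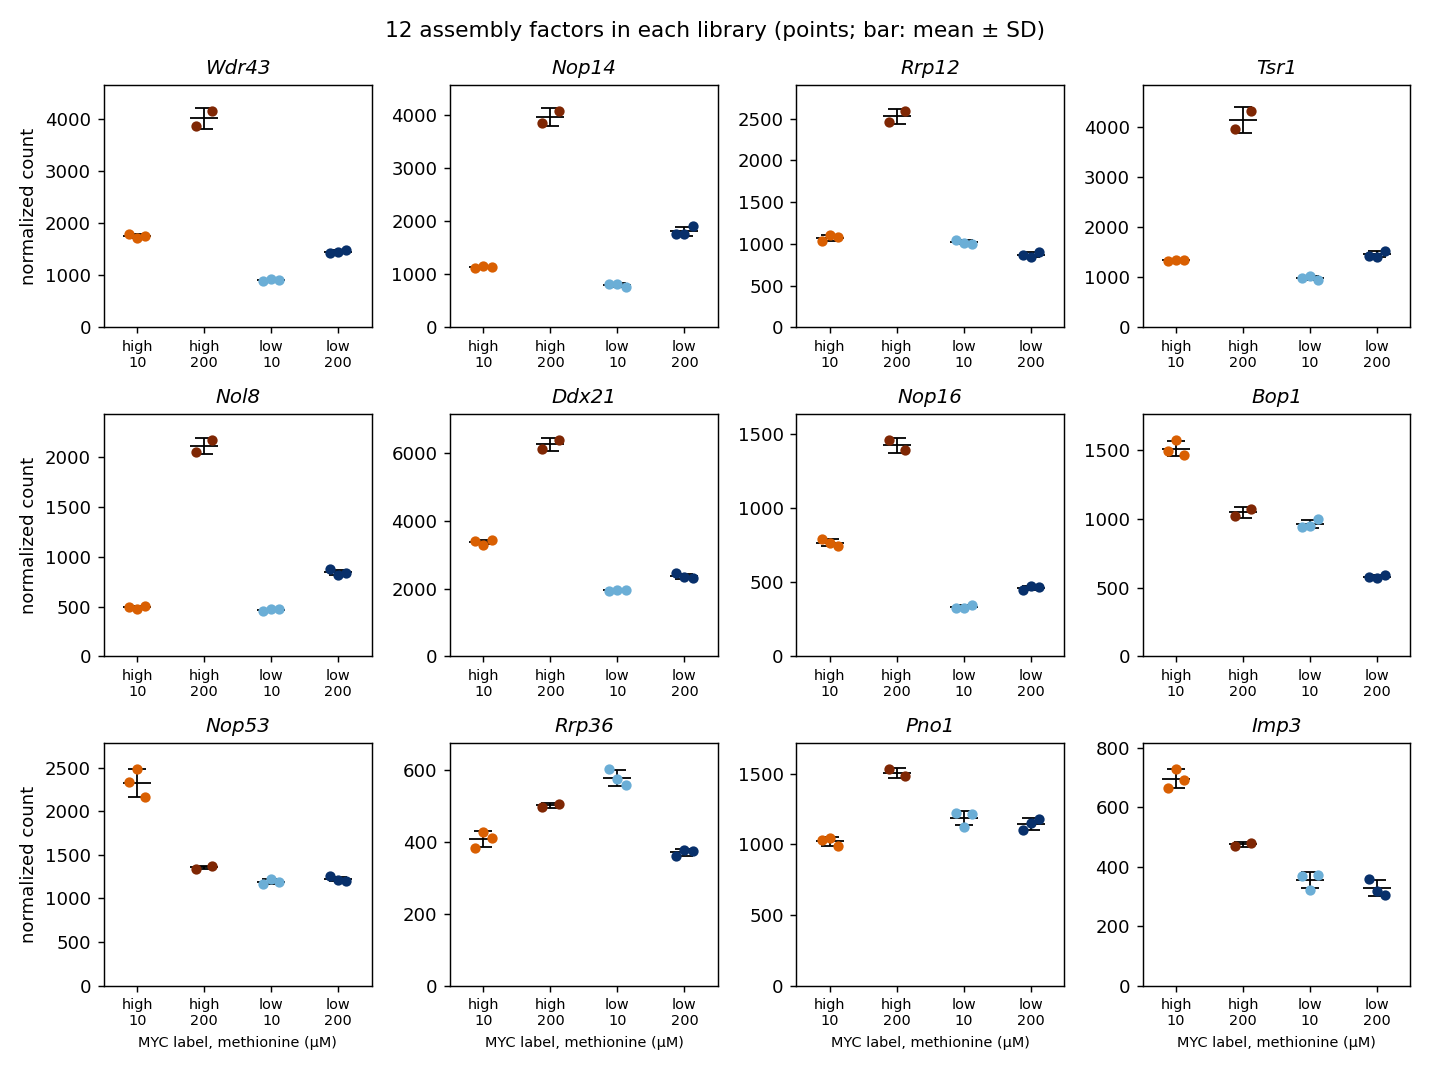
Normalized counts of 12 assembly factors in each library (points) with the group mean and SD (bars), for MYC high at 10 and 200 µM and MYC low at 10 and 200 µM from left to right. The first 7 panels and Pno1 peak in fed MYC high cells, while Bop1, Nop53 and Imp3 are highest in starved MYC high cells, and Rrp36 is highest in starved MYC low cells.

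By module, all 6 UTP-A genes fell in starved MYC high cells (median −0.96, from −1.20 for Wdr75 to −0.62 for Nol11). All 5 late small-subunit factors fell as well (median −0.60). Of the 14 other processome genes 11 fell, and Nol10 (−1.45) and Nol6 (−1.40) fell most after Nop14. Nol6, the homologue of the yeast UTP-C subunit Utp22, had 618, 655 and 691 normalized counts in MYC high cells at 10 µM and 1748 and 1715 at 200 µM, against 719.5, 697 and 653 in MYC low cells at 10 µM and 923, 936 and 928 at 200 µM. Its starved MYC high libraries overlapped the starved MYC low libraries. Of the UTP-B genes 4 fell and Tbl3 did not pass (0.15, interval −0.031 to 0.32, adjusted p = 0.127), though edgeR called it higher (0.16, adjusted p = 0.0462), as did scaling to equal totals (0.19, adjusted p = 0.0468) or equal upper quartiles (0.22, adjusted p = 0.0269). Tbl3 shares 37.3% of its exonic length with Noxo1, which had a mean of 14.0 normalized counts. Bms1 fell slightly (−0.15, adjusted p = 0.0106) and did not pass without replicate 3 of MYC high cells at 200 µM (−0.13, adjusted p = 0.0764) or with equal totals (−0.099, adjusted p = 0.0803) or equal upper quartiles (−0.077, adjusted p = 0.169).

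The 8 genes that rose in starved MYC high cells came from several modules. They were Nop53 (0.78), Ebna1bp2 (0.56), Imp3 (0.55), Bop1 (0.53), Rrp7a (0.47), Rrp1 (0.36), Nop9 (0.26) and Utp3 (0.16). Nop53 (ENSMUSG00000041560) had 2331, 2482 and 2159 normalized counts in MYC high cells at 10 µM and 1341 and 1367 at 200 µM, against 1161, 1225 and 1193 in MYC low cells at 10 µM and 1252, 1212 and 1204 at 200 µM. Starved MYC high libraries stood above all 8 others, 1.71-fold over fed MYC high cells (log2 0.78, SE 0.048, adjusted p = 5.04e-17). Imp3 (ENSMUSG00000032288), a small subunit of the MPP10 complex, had 665, 728 and 693 normalized counts in MYC high cells at 10 µM and 469.6 and 481 at 200 µM, against 369, 323 and 370.4 in MYC low cells at 10 µM and 358, 317 and 306 at 200 µM. Its rise was 1.46-fold (SE of the log2 difference 0.077, adjusted p = 5.67e-08), while Mphosph10 of the same complex fell 2.07-fold. Ebna1bp2, a large-subunit factor that binds Rrs1 in yeast, had 753, 804 and 707 normalized counts in MYC high cells at 10 µM and 512 and 508 at 200 µM, against 502, 424 and 428 in MYC low cells at 10 µM and 403, 394 and 323 at 200 µM. The starved MYC high libraries were the highest group. Utp3 and Nop9 did not pass without replicate 2 of MYC high cells at 200 µM (0.071, adjusted p = 0.385, and 0.16, adjusted p = 0.116).

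Bop1 moved against its PeBoW partners in both MYC states. Bop1 (ENSMUSG00000022557) had 1492, 1572 and 1464 normalized counts in MYC high cells at 10 µM and 1019 and 1074 at 200 µM, against 939, 948 and 996 in MYC low cells at 10 µM and 579, 568 and 588 at 200 µM. It rose at 10 µM by 0.53 (SE 0.051, adjusted p = 1.20e-11) in MYC high cells and by 0.73 (SE 0.046, adjusted p = 2.05e-16) in MYC low cells. Pes1 fell by 0.46 and 0.21 (log2) in MYC high and MYC low cells, and Wdr12 fell by 0.68 and 0.29. All 3 were nevertheless higher in MYC high libraries in both media.

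In MYC low cells 33 of the 57 genes fell at 10 µM, 7 rose and 17 did not pass, against 29.9% of all genes tested lower and 29.4% higher. The median was −0.19, against 0.0011 over all genes tested, and 1 gene, Nop14 (−1.18, SE 0.043), fell at least 2-fold, against 2.17% of all genes tested. Nol8 (−0.85) and Wdr75 (−0.84) followed. Wdr75, a UTP-A subunit that is needed for ribosomal gene transcription, had 691, 685 and 712 normalized counts in MYC high cells at 10 µM and 1494 and 1707 at 200 µM, against 431, 413 and 470.0 in MYC low cells at 10 µM and 801, 759 and 789.7 at 200 µM. Starved libraries were lower in both states, with no overlap between groups. The genes that rose were Bop1, Rrp36 (0.64), Rrp1 (0.46), Nop9 (0.35), Ebna1bp2 (0.28), Rrp7a (0.24) and Rrp12 (0.23). Noc3l (−0.18) did not pass without replicate 3 of MYC low cells at 10 µM (−0.14, adjusted p = 0.0660), nor did Nol9 (−0.19) without replicate 1 (−0.15, adjusted p = 0.0516).

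Taking the states side by side, 32 of the 57 genes fell in both, against 21.6% of all genes tested, and 5 rose in both, also against 21.6%. A further 12 fell in MYC high cells and did not pass in MYC low cells, against 12.8% of all genes tested. Rrp12 and Rrp36 fell in MYC high cells and rose in MYC low cells (3.43% of all genes tested did), by −1.23 and 0.23 for Rrp12 and −0.30 and 0.64 for Rrp36, and the interaction passed for both (adjusted p = 1.27e-20 and 5.21e-11). The methionine differences in the states, which share no libraries, correlated across the 57 genes with a Pearson r of 0.739, against 0.652 across all genes tested.

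**Figure D5:**
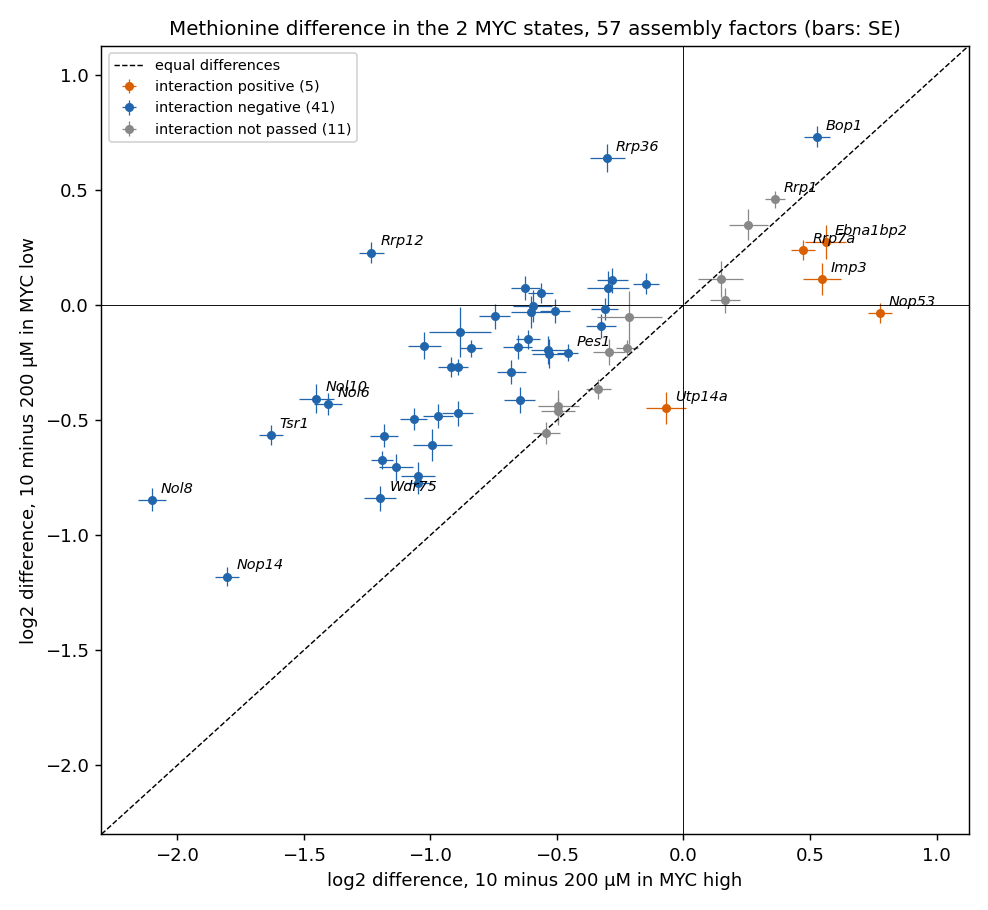
Methionine difference (log2, 10 minus 200 µM) in MYC high cells on the x axis and in MYC low cells on the y axis, 1 point per gene with bars of 1 SE. Blue points (41 genes) have a negative interaction and lie above the dashed line of equal differences, orange points (5 genes) a positive one, and Rrp12 and Rrp36 lie in the quadrant lower in MYC high and higher in MYC low cells.

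The set holds a pair of paralogues for each of Gnl3 and Rrp1. Gnl3, which encodes the nucleolar GTPase nucleostemin, had 1237, 1343 and 1358 normalized counts in MYC high cells at 10 µM and 2627 and 2798 at 200 µM, against 673, 601 and 675 in MYC low cells at 10 µM and 1079, 1132 and 1112 at 200 µM. Gnl3l, its close relative, had 2017, 1986 and 2133 normalized counts in MYC high cells at 10 µM and 2320.5 and 2454 at 200 µM, against 1508, 1598 and 1584 in MYC low cells at 10 µM and 1799, 1766 and 1777 at 200 µM. The MYC difference at 200 µM was 1.29 (SE 0.053) for Gnl3 and 0.42 (SE 0.043) for Gnl3l, and MYC high cells at 10 µM were lower than at 200 µM by 1.05 (SE 0.053) and 0.22 (SE 0.043). Rrp1 had 3532, 3823 and 3534 normalized counts in MYC high cells at 10 µM and 2790.1 and 2857 at 200 µM, against 3365, 3323 and 3363 in MYC low cells at 10 µM and 2545, 2394 and 2376 at 200 µM. Rrp1b, which also binds protein phosphatase, had 1031, 939.8 and 1094 normalized counts in MYC high cells at 10 µM and 1249 and 1306 at 200 µM, against 592, 574 and 563 in MYC low cells at 10 µM and 591, 634 and 617 at 200 µM. In MYC high cells Rrp1 rose by 0.36 (SE 0.040) at 10 µM and Rrp1b fell by 0.32 (SE 0.059). The difference between the paralogues of a pair was not itself tested.

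Promoters of the set were searched for the E-box CACGTG, which reads the same on both strands, and for the GC box GGGCGG on either strand. RefSeq promoter windows of build GRCm38.p6, from 250 bases before to 50 bases after the start, were matched by symbol for 45 of the 57 genes. The E-box was found in 14 of these (31.1%), against 12.1% of the 9263 tested genes and 8.09% of all 27025 genes with a window, where a gene counts if any of its windows holds it. The GC box was found in 68.9% of the 45, against 69.9% of the tested genes. In the 150 bases nearest to the start, from 100 before to 50 after, the E-box was found in 12 of the 45 (26.7%), against 7.75% of the tested genes. The GC box was found there in 48.9% of the 45, against 59.8% of the tested genes. A match describes letters in a window and not a bound site.

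In 9 of the 14 genes, Utp4, Wdr43, Utp20, Tsr1, Tsr2, Pno1, Ltv1, Pes1 and Nle1, the E-box began after the start. In the other 5 it lay wholly before the start, and these stretches are shown to place the motif in genes that differed little and much between MYC states. Capitals mark the E-box, each sequence runs 5′ to 3′ along the gene's strand, and the first base of the E-box lies 121, 20, 43, 208 and 12 bases before the start for Imp4, Utp18, Nol11, Rrp7a and Wdr46.
Imp4: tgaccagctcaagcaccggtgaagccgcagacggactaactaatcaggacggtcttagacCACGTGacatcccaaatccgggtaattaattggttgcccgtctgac
Utp18: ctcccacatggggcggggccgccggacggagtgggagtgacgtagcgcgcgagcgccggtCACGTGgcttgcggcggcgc
Nol11: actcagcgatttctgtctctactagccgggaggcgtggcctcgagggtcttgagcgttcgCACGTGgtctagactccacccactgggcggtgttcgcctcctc
Rrp7a: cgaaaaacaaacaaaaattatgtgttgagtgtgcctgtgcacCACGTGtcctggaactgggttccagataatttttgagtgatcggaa
Wdr46: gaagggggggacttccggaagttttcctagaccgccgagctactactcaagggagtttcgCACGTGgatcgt
In GRCm38.p6 they lie at chr1:34439648-34439753, plus strand (Imp4), chr11:93885767-93885846, minus strand (Utp18), chr11:107189382-107189484, minus strand (Nol11), chr15:83122964-83123051, minus strand (Rrp7a) and chr17:33940651-33940722, plus strand (Wdr46). The MYC differences of these genes at 200 µM were 0.59, 0.90, 0.91, 0.11 and 1.18 on the log2 scale in the same order. The median MYC difference at 200 µM was 0.90 for the 14 genes with an E-box and 1.03 for the 31 without.

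A second list of 75 ribosome assembly factors outside the 57 is given for comparison, and most of its genes had the same direction as most of the 57. Of 74 that matched and were tested, 70 were higher in MYC high cells at 200 µM and 1, Ddx49, was lower (median 0.79). Among all genes tested 36.8% were higher and 37.6% lower. At 10 µM 61 of the 74 were higher and 5 lower (median 0.44), against 35.7% and 35.8% of all genes tested. Lyar, a nucleolar zinc finger protein, had the largest MYC difference of the 74 in both media, 3.99-fold at 200 µM (SE of the log2 difference 0.069) and 3.10-fold at 10 µM (SE 0.061). At 200 µM Nob1, the endonuclease that pairs with Pno1, stood at a log2 difference of 1.68 and Ddx49, a DEAD-box helicase, at −0.36. In starved MYC high cells 57 of the 74 fell and 9 rose (median −0.57), against 37.9% of all genes tested lower and 37.9% higher. Esf1 (−2.00) and Sbds (−1.48), the gene of Shwachman-Diamond syndrome, stood at the low end and Bud23 and Las1l (0.60 and 0.60) at the high end. In MYC low cells 41 fell and 13 rose (median −0.19), against 29.9% of all genes tested lower and 29.4% higher. The interaction was negative in 51 and positive in 4, against 29.4% of all genes tested negative and 31.0% positive.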

How the data were processed

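The authors deposited normalized counts, a scaled signal per gene and not raw counts. Per the submitters' processing notes the tools were STAR, HTSeq and DESeq2, with fastp, FastQC and SAMtools, on build GRCm39. For their versions, parameters and strand setting, the sources used here give nothing. Every value was a whole multiple of its library's step (tolerance 0.001 reads, 100% of values), and the step equalled the inverse of a median-of-ratios size factor, so whole reads were recovered. Columns of other samples numbered 0. Libraries held 10858936 to 13085689 reads.

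Of 55416 identifiers 52083 had a GENCODE M21 symbol. Exonic and transcript lengths and overlaps come from that annotation, which is of an earlier build. Limma 3.58.1 in R 4.3.3 was run on log2(value + 1) of the 12909 genes with a mean of at least 10, over all 11 libraries with 4 group means and a mean-variance trend (7 residual and 29.0 prior degrees of freedom). Fold changes are on that scale, SE is limma's moderated error, and Benjamini-Hochberg adjusted p under 0.05 over all genes is the call. With 2 MYC high libraries at 200 µM, the spread is assumed equal between groups. The labels do not say that replicates are separate cultures, so p-values measure the spread between libraries, which may be technical. Alternatives were other pseudocounts, filters and scalings, a replicate block, each library left out, and edgeR 4.0.16 and DESeq2 1.42.0 on whole reads. EdgeR called 9583 and 9386 genes for MYC at 200 and 10 µM, 9718 and 7915 for methionine in MYC high and MYC low cells and 7757 for the interaction.

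The 57 genes and the lists were chosen with earlier results of these data known. Any of the 57 may be named. Values in every library are given for 18 genes chosen by name, for the 3 largest and 3 smallest differences of each comparison and for 2 paralogue pairs. Of the other factors, at most the 2 largest and smallest of a comparison are named.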

Additional observations from a re-analysis of the deposited data

Results flagged for a closer look

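The methionine difference (log2, 10 minus 200 µM) differed between MYC high and MYC low cells for 46 of the 57 genes, by limma's interaction term at an adjusted p under 0.05. The term was negative in 41 of them and positive in 5, against 29.4% of all genes tested negative and 31.0% positive. Each value below is the difference in MYC high cells minus the one in MYC low cells. In the UTP-A complex they were −0.70 for Utp4 and for Nol11, −0.61 for Heatr1, −0.52 for Wdr43, −0.36 for Wdr75 and −0.23 for Utp15. In the UTP-B complex they were −0.57 for Utp18 and −0.47 for Utp6 and for Wdr3, and in the MPP10 complex −0.31 for Mphosph10 and 0.43 for Imp3. Among other processome genes they were −1.04 for Nol10, −0.97 for Nol6, −0.94 for Rrp36, −0.76 for Utp23, −0.65 for Utp20 and for Wdr46, −0.62 for Nop14, −0.48 for Dcaf13, −0.38 for Noc4l, −0.24 for Bms1, 0.23 for Rrp7a and 0.38 for Utp14a.

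For late small-subunit factors the values were −1.46 for Rrp12, −1.07 for Tsr1, −0.62 for Pno1 and −0.57 for Ltv1. For the PeBoW complex they were −0.39 for Wdr12, −0.25 for Pes1 and −0.20 for Bop1. Among other large-subunit and nucleolar genes the most negative were Nol8 at −1.25, Noc3l at −0.85, Ddx21 at −0.62, Rrp15 at −0.59 and Rrs1 at −0.49. Nip7 stood at −0.43, Nop16 at −0.42, Brix1 at −0.39, Rrp8 at −0.37, Nol9 at −0.34, Gnl2 at −0.32, Noc2l at −0.29, Gnl3 at −0.28 and Rrp1b at −0.23, while Ebna1bp2 at 0.29 and Nop53 at 0.81 were positive.

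Some of these calls depended on a single library or on the scaling, besides that of Ebna1bp2. Without replicate 3 of fed MYC high cells, limma's adjusted p was 0.0802 for Utp15, 0.0570 for Mphosph10, 0.0741 for Bop1 and 0.0637 for Rrp1b, and without replicate 2 it was 0.0598 for Gnl2. With scaling to equal upper quartiles it was 0.0677 for Utp15, 0.0716 for Bop1 and 0.0600 for Rrp1b. Utp3 passed as positive with that scaling (0.20, adjusted p = 0.0288), without replicate 3 of fed MYC high cells (0.23, adjusted p = 0.0235) and without replicate 1 of starved MYC low cells (0.20, adjusted p = 0.0383). Rrp1 passed as negative without replicate 2 of starved MYC high cells (−0.14, adjusted p = 0.0180) and without replicate 1 of fed MYC low cells (−0.13, adjusted p = 0.0423).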

How the results depend on the processing

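No difference of the 57 genes changed direction as a call under any alternative run. The count of genes lower in MYC high cells at 10 µM was 4 with scaling to equal library totals, against 2. Leaving out each library in turn, the counts higher and lower ran from 55 to 57 and 0 to 0 for MYC at 200 µM, 46 to 48 and 2 to 3 for MYC at 10 µM, 6 to 8 and 45 to 46 for methionine in MYC high cells, 7 to 9 and 32 to 33 in MYC low cells, and 4 to 6 and 37 to 42 for the interaction. Where 1 fed MYC high library was left, it was assumed to vary like the other groups. Of 285 tests, the number on the same side of the threshold was 284 with DESeq2, 283 with edgeR, 274 with equal totals, 277 with equal upper quartiles, 283 with no filter, and 285 with a mean of at least 50 and with pseudocounts of 0.5 and 5. Deviations from group means gave no sign that replicate numbers pair the libraries. Their r was −0.049 to 0.026 for pairs with the same number and −0.046 to 0.049 for pairs with different numbers. Of 11 libraries 2 correlated best with their own number. The 2 fed MYC high libraries deviate from their mean by opposite amounts, so their r values differ only in sign and say little about pairing. The replicate block added 1 call, Tbl3 in MYC high cells (0.20, adjusted p = 0.0364), making 9 higher. Scaling moved the median of all genes by at most 0.085 on the log2 scale. Bms1 (0.14), Brix1 (0.16) and Imp3 (0.18) passed as higher in starved MYC low cells without 1 of the MYC low libraries. With scaling to equal library totals Bms1 (0.11, adjusted p = 0.0350) and Brix1 (0.13, adjusted p = 0.0446) passed there too. Values are relative to all RNA, MYC high cells at 200 µM had 2 libraries, and the cause of changed calls was not tested.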

Other observations

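Median base composition differed between genes that rose and fell with starvation in MYC high cells, but the ranges overlapped. In MYC high cells the 8 genes that rose at 10 µM had a median GC content of 55.0% in their longest coding transcript, and the 46 that fell had 47.0%. The 8 ran from 48.4% to 58.2%, within the 40.4% to 59.8% of the 46. Across the 57 genes GC content correlated with the methionine difference at a Pearson r of 0.393 (MYC high cells) and 0.419 (MYC low cells), against 0.111 and 0.119 across 10967 tested genes with a value. Genes are not independent replicates, and the part of base composition in the results was not tested. For the MYC difference at 200 µM, r with GC content was −0.022 across the 57 genes.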
